A study of Mus musculus with 36 samples.

Results

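Trib1, Trib2 and Trib3 encode the Tribbles proteins, relatives of protein kinases that bind other proteins but have little or no kinase activity of their own. The members were the rows of the deposited expression table with these 3 symbols, 3 of 54735 symbols in all, followed through 12 groups of mouse embryonic fibroblasts (MEFs), cultured connective tissue cells of the embryo. RNA sequencing had been done on a wild-type line (WT), a line labelled as deleted for the kinase GCN2 and a line labelled as deleted for the kinase PERK. Each line was left untreated, given DMSO, starved of lysine and arginine (labelled AAS), or given thapsigargin at 200 nM, which empties the calcium store of the endoplasmic reticulum (ER) by blocking its pump. Starvation and thapsigargin lasted 6 h per the labels, and all lines were grown in RPMI medium with serum. By the labels the series set out to find genes induced through GCN2 or PERK but not through the other kinase.

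There were 36 libraries, 3 to a group, and their labels number them as technical replicates, so p-values measure only the spread between such libraries. Each genotype is 1 line as far as the labels say, and line and deletion cannot be told apart. The labels name no control for starvation or for thapsigargin. Untreated cells served here for starvation and DMSO for thapsigargin. In starved cells, lack of the amino acids cannot be told apart from the change of medium. Expression is in TPM, a length-corrected transcript abundance with the same total in every library, so depth is not known and no counting interval could be given. Libraries of 1 group correlated at 0.962 to 0.988 across genes. Mitochondrial transcripts took 4.27% to 9.49% of the TPM, and microRNA-named symbols took 0.596% to 2.81%. In the starved PERK-deletion group, replicate 1 stood apart, with 4.33% mitochondrial and 1.90% microRNA TPM, against 7.80% and 7.97%, and 0.657% and 0.718%, in its 2 partners. It was not the only one. Replicate 2 of GCN2-deletion cells given thapsigargin had 4.27% mitochondrial and 1.97% microRNA TPM. Replicate 1 of DMSO-treated GCN2-deletion cells had 2.81% microRNA TPM, against 0.764% and 0.879% in its partners. All 10 fibroblast markers checked reached 1 TPM in some group, 7 of them in every group, while 0 of 6 epithelial and 0 of 2 pluripotency markers did in any. Among other lists, 3 of 4 neural markers (Sox2, Tubb3 and Map2) did, with a list sum of 13.4 to 45.4 TPM per library. So did 2 of 5 endothelial markers (Pecam1 and Kdr), Cd68 of 6 leukocyte markers, Des of 3 muscle markers and Plin1 of 3 adipocyte markers. Their part in the results was not tested. Of the kinases, Eif2ak4 (GCN2) had 24.6 TPM in untreated WT, 5.25 TPM in the GCN2-deletion line and 22.7 TPM in the PERK-deletion line. Eif2ak3 (PERK) had 6.99, 10.1 and 4.22 TPM in these groups; its transcript was lowered less in its own deletion line, and TPM of a whole gene does not show whether an exon is missing.

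GCN2 responds to uncharged transfer RNA when amino acids run short, and PERK responds to unfolded protein in the ER. Both phosphorylate the translation factor eIF2, which slows translation in general but raises translation of ATF4, a transcription factor that in turn induces CHOP (gene Ddit3). Trib3 is a textbook target of ATF4 and CHOP, and its protein binds both the kinase AKT and ATF4 or CHOP themselves, as a brake on the response. Trib1 and Trib2 proteins are adaptors that bring substrates such as the transcription factor C/EBP-alpha to the ubiquitin ligase COP1, and they bind the kinase MEK1.

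In annotation GENCODE M21 of GRCm38, Trib1 (ENSMUSG00000032501.9) is a protein-coding gene on the forward strand, chr15:59648350-59657099. Trib2 (ENSMUSG00000020601.8) is protein coding and on the reverse strand, chr12:15791727-15816922, and holds the microRNA gene Mir6387 on the same strand, listed at up to 3.92 TPM, from which its reads might not be separated. Trib3 (ENSMUSG00000032715.9) is protein coding and on the reverse strand, chr2:152337422-152344032. RefSeq promoter windows on GRCm38.p6 matched 2 of the 3 genes, Trib2 and Trib3. ATF4 dimers are known to bind elements that hold TGATGNAA. The 250 bases before the RefSeq start of Trib2 overlap transcribed bases, so only the Trib3 sequence is shown. It runs 5′ to 3′ on the strand of the gene from 250 bases before the RefSeq start to the last base before the GENCODE gene, 278 bases at chr2:152344033-152344310. Capitals mark matches, on either strand, to TGATGNAA and to TGCAAT, a core of CHOP-type elements; the 2 marked matches do not overlap.

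Trib3: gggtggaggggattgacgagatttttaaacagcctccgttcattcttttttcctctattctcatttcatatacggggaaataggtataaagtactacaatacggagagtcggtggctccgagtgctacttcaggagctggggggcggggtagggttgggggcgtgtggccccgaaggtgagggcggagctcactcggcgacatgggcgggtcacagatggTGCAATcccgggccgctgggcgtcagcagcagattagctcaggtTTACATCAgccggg

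The capitals nearest the gene, TTACATCA, read TGATGTAA on the opposite strand; they lie 15 to 22 bases after the RefSeq start, at chr2:152344039-152344046, which is upstream of the GENCODE gene. TGCAAT reads along the gene, 30 to 25 bases before the RefSeq start. Of all 32851 RefSeq windows of 300 bases, 3.97% held TGATGNAA and 8.40% held TGCAAT. Among 18 other known targets of ATF4 and CHOP, whose windows were all found, 6 held TGATGNAA (Asns, Chac1, Fgf21, Herpud1, Slc7a11 and Vldlr) and 3 held TGCAAT (Fgf21, Psat1 and Vldlr). The Trib2 window held neither set of letters. A match describes the letters and is not evidence of binding.

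Tests were run on log2(TPM + 1), a scale that understates the change of low genes, with limma over the 16083 genes that reached 1 TPM in at least 3 libraries. Genes that rose, fell or were called had a Benjamini-Hochberg adjusted p under 0.05, and all adjusted p-values are from limma. Trib1 reached 1 TPM in 36 of 36 libraries and Trib3 in 35. Trib2 did so in 12, all of them from the GCN2-deletion line, so it entered the test only through the line in which it is high.

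Trib3 and Trib1 answered the stresses in different ways. Trib3 rose with thapsigargin in all 3 lines and with starvation in WT, while Trib1 rose with starvation and fell with thapsigargin in all 3 lines. With starvation 2 of the 3 genes were called in WT, where 29.8% of all genes tested were. All 3 were called in the GCN2-deletion line (23.8% of all genes), and 1 in the PERK-deletion line (12% of all genes). With thapsigargin 2 were called in each line, against 26.2% of all genes in WT, 36.6% in the GCN2-deletion line and 5.24% in PERK-deletion cells. Over all 18 comparisons made, Trib3 was called in 13, Trib1 in 10 and Trib2 in 4. The share of all genes called was large in many comparisons, so a call by itself says little about these genes, and the sizes are given below.

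**Figure D1:**
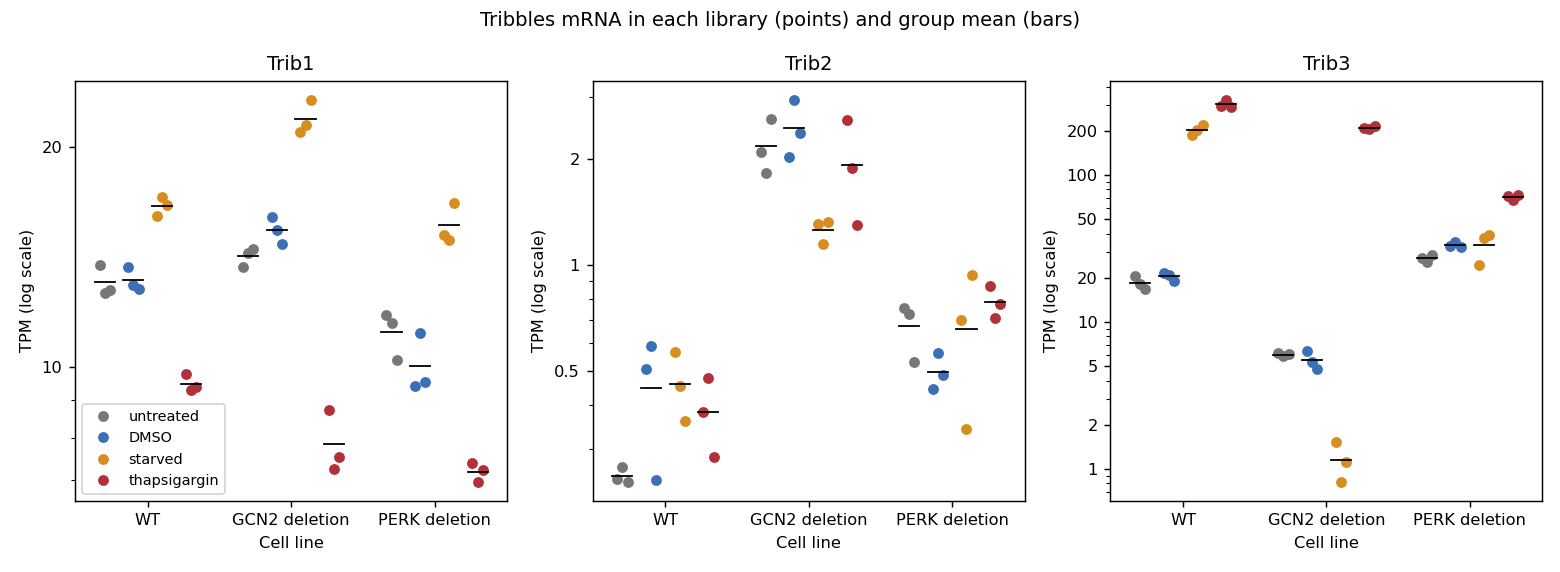
TPM on a log axis of Trib1, Trib2 and Trib3 in each of the 36 libraries (points, coloured by treatment) with the mean of the 3 libraries of each group (bars), by cell line. Trib3 spans 0.820 to 323 TPM and is lowest in the starved GCN2-deletion libraries, Trib1 stays between 6.97 and 23.1 TPM, and Trib2 exceeds 1 TPM in the GCN2-deletion line alone.

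Trib3 was the highest of the 3 genes in unstressed WT cells and became far more abundant under either stress. Untreated WT libraries held 20.7, 18.2 and 16.7 TPM (18.5 ± 2.01, SD, n = 3), and starved ones held 188, 203 and 220 TPM (204 ± 16.2, SD, n = 3). All 3 starved libraries lay far above all untreated ones, with a 10.98-fold ratio of means. In bulk RNA, a change in the number of cells with the transcript and a change in the amount per cell cannot be told apart. The log2 change was 3.39 (SE 0.122, adjusted p = 3.11e-18), rank 3 from the highest of the 16083 genes tested.

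Thapsigargin took Trib3 in WT from 21.4, 20.9 and 18.9 TPM with DMSO (20.4 ± 1.34, SD, n = 3) to 295, 323 and 291 TPM (303.1 ± 17.7, SD, n = 3). The groups were again far apart, at a 14.8-fold ratio of means, and the log2 change was 3.83 (SE 0.122, adjusted p = 1.44e-19), rank 4 from the highest. In absolute level the thapsigargin libraries of WT all lay above the starved ones. The test of starvation response against thapsigargin response in WT called 1 of the 3 genes, against 11.8% of all genes, and that was Trib1. For Trib3 that difference was -0.44 (95% interval -0.79 to -0.08, adjusted p = 0.102). It passed when each stress was set against the other control group (-0.71, adjusted p = 0.00416).

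In the GCN2-deletion line the 2 stresses moved Trib3 in opposite directions. Starvation lowered it from 6.13, 5.89 and 6.02 TPM (6.01 ± 0.119, SD, n = 3) to 1.53, 0.820 and 1.11 TPM (1.15 ± 0.355, SD, n = 3), its lowest level in the series. No starved library reached any untreated one; the mean was 5.21-fold lower and the log2 change was -1.72 (SE 0.122, adjusted p = 2.16e-11), rank 48 from the lowest. Starved GCN2-deletion cells held 0.566% of the Trib3 mean of starved WT cells.

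Thapsigargin raised Trib3 in the same line from 6.38, 5.38 and 4.78 TPM with DMSO (5.51 ± 0.809, SD, n = 3) to 208, 206 and 216 TPM (210 ± 5.07, SD, n = 3). All treated libraries lay far above the DMSO ones, a 38.1-fold ratio of means. The log2 change of 5.02 (SE 0.122, adjusted p = 2.70e-22) was the highest of all genes tested. The level reached was 69.3% of that in WT, without overlap, from a lower start.

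In the PERK-deletion line Trib3 began higher and moved less. Untreated libraries held 27.2, 25.6 and 28.5 TPM (27.1 ± 1.49, SD, n = 3), and starved ones held 24.5, 37.1 and 39.2 TPM (33.6 ± 7.98, SD, n = 3). The low starved library is replicate 1, which stood apart from its partners in mitochondrial and microRNA TPM, and with it the groups overlapped. The log2 change was 0.27 (95% interval 0.02 to 0.52, adjusted p = 0.158). Without that library it was 0.48 (adjusted p = 0.00273), which passed, and against DMSO in place of untreated cells it was -0.02. Whether starvation raised Trib3 in this line thus turned on 1 library and on the control.

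Thapsigargin raised Trib3 in the PERK-deletion line from 33.0, 34.9 and 32.4 TPM with DMSO (33.4 ± 1.30, SD, n = 3) to 72.5, 67.9 and 72.9 TPM (71.1 ± 2.81, SD, n = 3). The groups did not overlap, and the mean rose 2.13-fold (log2 change 1.07, SE 0.122, adjusted p = 3.39e-07). The level reached was 23.5% of that of WT cells given thapsigargin.

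The differences between these responses were tested directly. For starvation, the GCN2-deletion line differed from WT in 2 of the 3 genes (7.71% of all genes). One of these is Trib2, which entered the test only through the GCN2-deletion line. It was under 1 TPM in every WT library, where log2(TPM + 1) leaves little room for a fall. The PERK-deletion line differed from WT in 1 gene (10.8% of all genes) and from the GCN2-deletion line in 1 (4.20% of all genes). The Trib3 starvation response was lower than in WT by a log2 difference of -5.11 in the GCN2-deletion line (SE 0.172, adjusted p = 3.94e-18), the lowest difference of all 16083 genes. The PERK-deletion line was lower than WT by -3.12 (SE 0.172, adjusted p = 3.36e-13). The response of the PERK-deletion line exceeded that of the GCN2-deletion line by 1.99 (SE 0.172, adjusted p = 2.04e-08). Both deletion lines thus responded below WT, with a called fall of Trib3 in the GCN2-deletion line and a change in the PERK-deletion line that was not called.

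For thapsigargin, the GCN2-deletion line differed from WT in 2 of the 3 genes (14.2% of all genes). The PERK-deletion line differed from WT in 1 (12.9% of all genes) and from the GCN2-deletion line in 2 (23.1% of all genes). The Trib3 response in the PERK-deletion line was lower than in WT by a log2 difference of -2.76 (SE 0.172, adjusted p = 3.91e-12). In the GCN2-deletion line it was higher than in WT by 1.20 (SE 0.172, adjusted p = 3.34e-05), with a lower DMSO level (5.51 against 20.4 TPM) and a lower treated level (210 against 303.1 TPM). Between the 2 deletion lines the difference was -3.96 (SE 0.172, adjusted p = 1.89e-15). Comparisons with WT share its libraries and are not independent of each other.

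**Figure D2:**
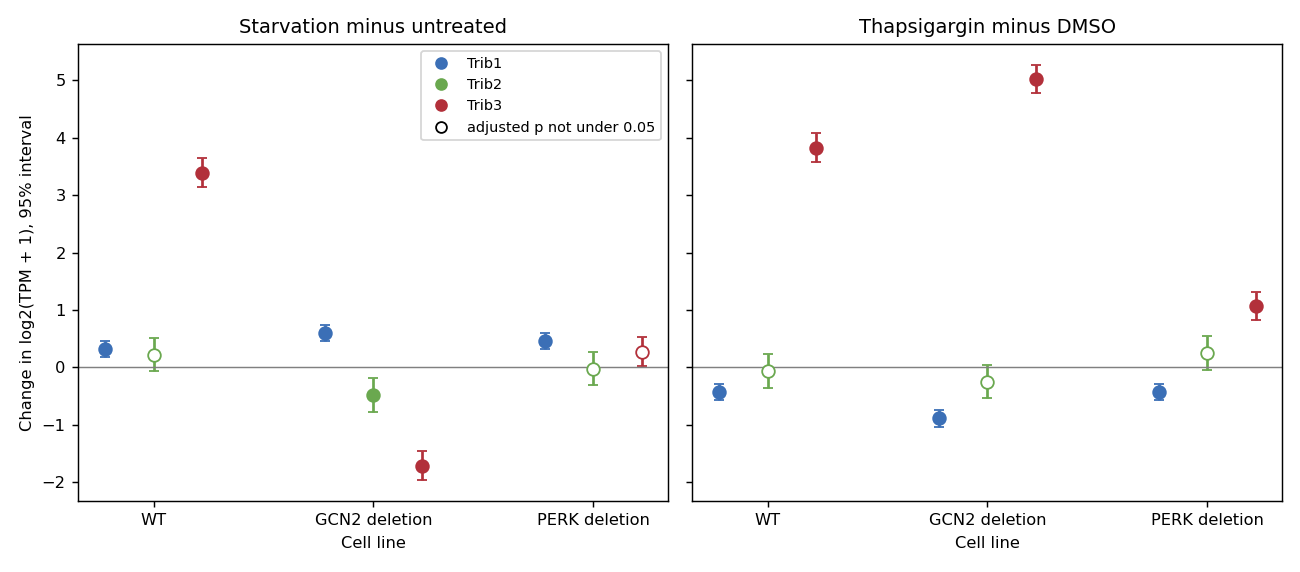
Change in log2(TPM + 1) with its 95% interval for each gene and cell line, with starvation against untreated cells on the left and thapsigargin against DMSO on the right; open points did not pass the test. Trib3 runs from -1.72 to 5.02, Trib1 is above 0 at every starvation point and below 0 at every thapsigargin point, and Trib2 passes at 1 point.

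Unstressed levels of Trib3 also differed between lines. In untreated cells 2 of the 3 genes differed between the GCN2-deletion line and WT, and all 3 between the PERK-deletion line and WT, against 44.4% and 49.6% of all genes. One of the genes that differed in the GCN2-deletion line is Trib2, which the filter admitted through that line, so its call there carries no weight. Between the PERK-deletion line and WT, Trib2 was under 1 TPM in every library. A fit of those 2 groups alone left it out and did not call Trib1 (limma, adjusted p = 0.216). Trib3 was at 32.4% of the WT mean in the GCN2-deletion line (log2 difference -1.47, SE 0.122, adjusted p = 4.09e-11) and at 146% in the PERK-deletion line (0.53, SE 0.122, adjusted p = 0.000636), without overlap in either case. DMSO alone gave no call for any of the 3 genes in any line by limma, where 0.0808%, 0.137% and 0.236% of all genes were called in WT, the GCN2-deletion line and the PERK-deletion line. At an unadjusted p under 0.05, 0, 0 and 2 of the 3 passed. The 2 in the PERK-deletion line were Trib3 at 0.29 (adjusted p = 0.465) and Trib1 at -0.14 (adjusted p = 0.555).

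Ordered by group mean, Trib3 ran from WT cells given thapsigargin down to starved GCN2-deletion cells, a 263-fold span. Of the 11 pairs of neighbours in that order, 4 overlapped in their libraries. One such pair was thapsigargin in the GCN2-deletion line and starvation in WT, at 210 and 204 TPM. The others were starvation and DMSO in the PERK-deletion line, DMSO and untreated in WT, and untreated and DMSO in the GCN2-deletion line.

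The genes listed upstream of Trib3 did not all follow its order of lines. The list holds 10 genes, the 2 kinases, the translation factor subunit Eif2s1 and 7 stress transcription regulators. With starvation 6 rose and 1 fell in WT, where 29.8% of all genes were called. In the GCN2-deletion line 3 rose and 4 fell (23.8% of all genes), and in the PERK-deletion line 1 rose and 1 fell (12% of all genes). Median log2 changes of the list were 0.83, -0.10 and 0.07, beside -0.05, 0.00 and -0.02 over all genes. With thapsigargin 8, 8 and 5 rose in the same order of lines and 0 fell, with medians of 1.20, 1.55 and 0.37 beside -0.04, 0.08 and -0.04. Of all genes, 26.2%, 36.6% and 5.24% were called with thapsigargin in that order.

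Atf4, whose protein is mainly controlled by translation, went in WT from 558 ± 22.4 to 1079 ± 4.55 TPM with starvation and from 604 ± 10.8 to 1523 ± 22.7 TPM with thapsigargin (SD, n = 3). It passed with starvation in WT alone (log2 change 0.95), with -0.04 and 0.02 in the GCN2-deletion and PERK-deletion lines. With thapsigargin it rose in all 3 lines, by 1.33, 1.54 and 0.57 in WT, the GCN2-deletion line and the PERK-deletion line. Ddit3 rose with starvation in WT (1.93) and fell in both deletion lines, at -1.08 with GCN2 deleted and -0.27 with PERK deleted. Under thapsigargin Ddit3 rose by 3.94, 3.65 and 2.27, beside 3.83, 5.02 and 1.07 for Trib3.

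Untreated PERK-deletion cells held more Trib3 than untreated WT cells but less Atf4 and Ddit3. Atf4 was 318 ± 21.6 TPM there and 322 ± 5.74 TPM in untreated GCN2-deletion cells (SD, n = 3), with overlapping libraries, while Trib3 was 27.1 TPM in the one and 6.01 TPM in the other. Ddit3 differed in the direction of Trib3, at 52.6 ± 2.10 TPM in untreated PERK-deletion cells and 36.5 ± 1.99 TPM in untreated GCN2-deletion cells (SD, n = 3), without overlap. Against untreated WT, Atf4 was lower by -0.81 and Ddit3 by -0.31 on the log2 scale in the PERK-deletion line, and both were called, while Trib3 was higher by 0.53. Starved GCN2-deletion cells kept Atf4 at 314 ± 15.6 TPM while Ddit3 stood at 16.7 ± 0.0895 TPM and Trib3 at 1.15 TPM. Transcript levels of Atf4 do not show the amount of its protein, which was not measured here.

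**Figure D3:**
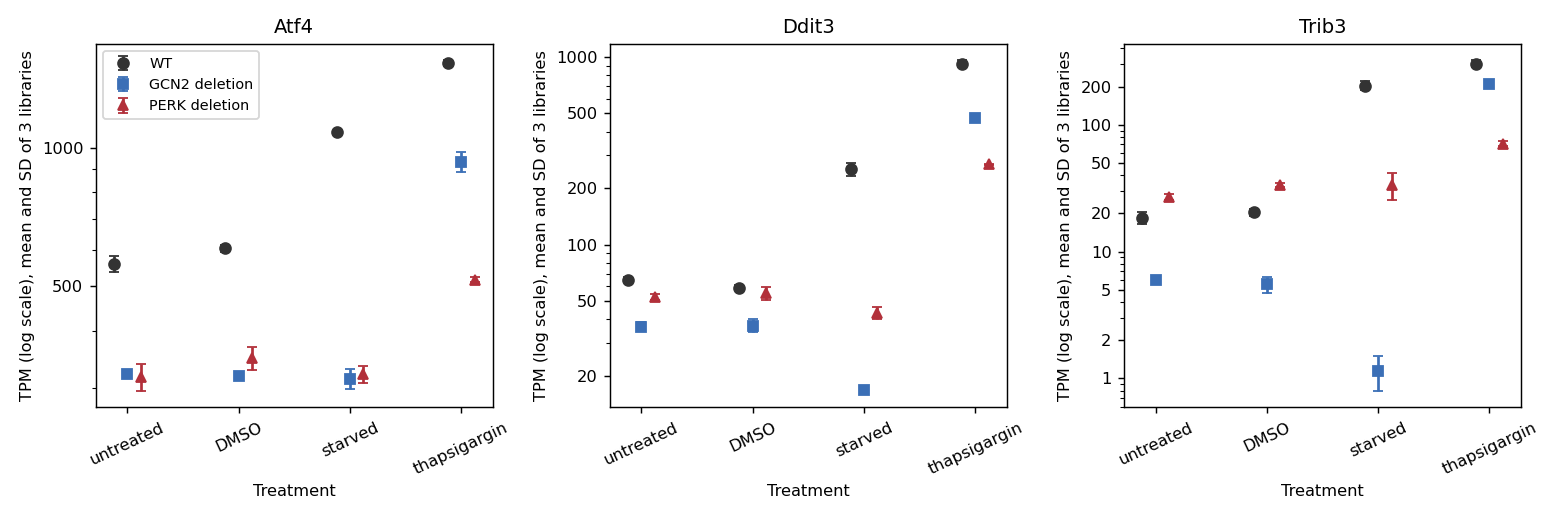
TPM on a log axis of Atf4, Ddit3 and Trib3 as mean and SD of 3 libraries for each treatment (x axis) and cell line (symbols). In untreated cells Atf4 is alike in both deletion lines at 318 and 322 TPM, while Trib3 is at 27.1 TPM in the PERK-deletion line and 6.01 TPM in the GCN2-deletion line.

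The 18 other targets of ATF4 and CHOP gave the setting for Trib3. They are textbook targets, but were listed with earlier results of these data known, so their counts are description only. With starvation 29.8%, 23.8% and 12% of all genes were called in WT, the GCN2-deletion line and the PERK-deletion line. All 18 targets rose in WT (median log2 change 1.73, beside -0.05 over all genes). In the GCN2-deletion line 0 rose and 11 fell (median -0.31, beside 0.00). The largest falls there were Chac1, which degrades glutathione, at -1.73, beside -1.72 for Trib3, and Herpud1, of ER-associated degradation, at -1.21. Of the 18, 7 rose and 1 fell in the PERK-deletion line (median 0.22); without replicate 1 of the starved group, 12 rose and 0 fell. The cystine transporter gene Slc7a11 rose most there (1.38), followed by the glycine transporter gene Slc6a9 (0.84), beside 0.27 for Trib3. With thapsigargin 17, 18 and 8 of the 18 rose in WT, the GCN2-deletion line and the PERK-deletion line, and 0 fell. Their medians were 1.71, 2.42 and 0.30, beside -0.04, 0.08 and -0.04 over all genes, of which 26.2%, 36.6% and 5.24% were called.

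By correlation of the 12 group means of log2(TPM + 1), the genes most like Trib3 were Sesn2 (r = 0.99), Mthfd2 (0.98), Cpox (0.98), Chac1 (0.98) and Sars (0.98), among 10342 genes compared. These coefficients describe means from the same libraries, which the group differences dominate. Sesn2, Mthfd2 and Chac1 were also members of the list of ATF4 and CHOP targets.

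Trib1 moved less than Trib3 in WT, and in opposite directions under the 2 stresses in all 3 lines. Among the 16083 genes tested, its starvation rises ranked 2074, 823 and 850 from the highest in WT, the GCN2-deletion line and the PERK-deletion line. Its falls with thapsigargin ranked 2191, 379 and 915 from the lowest in that order. In WT it went from 13.8, 12.6 and 12.7 TPM untreated (13.1 ± 0.647, SD, n = 3) to 16.1, 17.1 and 16.6 TPM when starved (16.6 ± 0.491, SD, n = 3). All starved libraries lay above all untreated ones, with a 1.27-fold ratio of means and a log2 change of 0.33 (SE 0.0681, adjusted p = 0.000469).

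In the GCN2-deletion line Trib1 went from 13.7, 14.3 and 14.5 TPM (14.2 ± 0.426, SD, n = 3) to 20.96, 21.4 and 23.1 TPM with starvation (21.8 ± 1.16, SD, n = 3). This was its highest level in the series, also without overlap, and 1.54-fold above untreated (log2 change 0.59, SE 0.0681, adjusted p = 2.04e-07). In the PERK-deletion line it went from 11.8, 11.5 and 10.2 TPM (11.2 ± 0.828, SD, n = 3) to 15.1, 14.9 and 16.8 TPM (15.6 ± 1.01, SD, n = 3). The groups did not overlap there either, at 1.40-fold (log2 change 0.45, SE 0.0681, adjusted p = 2.92e-05), though a fit of these 2 groups alone gave an adjusted p of 0.0599.

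The starvation responses of Trib1 were not shown to differ between lines. The response of the GCN2-deletion line was 0.27 above that of WT (95% interval 0.07 to 0.46, adjusted p = 0.0990), and that of the PERK-deletion line 0.12 above WT (-0.07 to 0.32, adjusted p = 0.500). In neither deletion line was the Trib1 rise lower than in WT, in contrast to Trib3.

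Under thapsigargin Trib1 in WT went from 13.7, 12.9 and 12.8 TPM with DMSO (13.1 ± 0.492, SD, n = 3) to 9.77, 9.30 and 9.38 TPM (9.49 ± 0.248, SD, n = 3). Every treated library was below every DMSO library, at 72.2% of the mean (log2 change -0.43, SE 0.0681, adjusted p = 1.57e-05). The difference between its starvation and thapsigargin responses in WT was 0.76 (SE 0.0963, adjusted p = 1.49e-06).

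In the GCN2-deletion line thapsigargin took Trib1 from 16.0, 15.4 and 14.7 TPM (15.4 ± 0.657, SD, n = 3) to 8.74, 7.25 and 7.52 TPM (7.84 ± 0.796, SD, n = 3), 51.0% of the mean and with no overlap. PERK-deletion cells went from 9.41, 11.1 and 9.53 TPM (10.0 ± 0.951, SD, n = 3) to 7.39, 6.97 and 7.23 TPM (7.20 ± 0.211, SD, n = 3), 71.9% of the mean and with no overlap. The log2 changes were -0.89 (adjusted p = 2.84e-11) and -0.42 (adjusted p = 9.24e-05), each with SE 0.0681.

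The fall with thapsigargin of GCN2-deletion cells was deeper than that of WT by -0.46 (SE 0.0963, adjusted p = 0.00215). It was deeper there than in the PERK-deletion line, by 0.47 (SE 0.0963, adjusted p = 0.000612), but this call was lost when untreated cells replaced DMSO as the control (0.21, adjusted p = 0.107). Between the PERK-deletion line and WT the difference was 0.01 (95% interval -0.19 to 0.20, adjusted p = 0.984).

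In untreated cells Trib1 in the PERK-deletion line was below WT by -0.21 (SE 0.0681, adjusted p = 0.0117), with no overlap of the libraries. That call was lost without replicate 3 of the untreated PERK-deletion cells (adjusted p = 0.0848), without replicate 1 of the untreated WT cells (0.0599), or in a fit of these 2 groups alone (0.216). These 2 libraries had 2.24% microRNA TPM and 9.49% mitochondrial TPM, each the highest of its group. With DMSO-treated cells of both lines the Trib1 difference was -0.36 (adjusted p = 5.40e-05), and after rescaling it was -0.29 (adjusted p = 4.77e-05). In the GCN2-deletion line the difference from WT was 0.11 (95% interval -0.03 to 0.25, adjusted p = 0.203), and with DMSO-treated cells it was 0.21 (adjusted p = 0.0122).

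Ordered by mean, Trib1 spanned 3.03-fold, with the 3 starved groups at the top and the 3 thapsigargin groups at the bottom. Ranges of libraries overlapped in 7 of 11 neighbouring pairs. The step from starved GCN2-deletion cells (21.8 TPM) to the next group, starved WT cells (16.6 TPM), had no overlap.

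The list of immediate early genes and of feedback regulators of ERK signalling, induced by growth factor and stress kinases, moved in the direction of Trib1 under starvation. This list, too, was drawn up with earlier results of these data known. Of 19 genes, 18 rose in WT, 18 in the GCN2-deletion line and 15 in PERK-deletion cells, with 0, 0 and 1 falling. Medians were 1.24, 1.06 and 0.58, beside -0.05, 0.00 and -0.02 over all genes, of which 29.8%, 23.8% and 12% were called. The ERK phosphatase gene Dusp6 rose by 2.09, 1.37 and 0.73 in that order of lines. With thapsigargin 5, 8 and 1 of the 19 rose and 10, 6 and 13 fell. Medians were -0.25, 0.12 and -0.43 beside -0.04, 0.08 and -0.04 over all genes, of which 26.2%, 36.6% and 5.24% were called. Trib1 changed by -0.43, -0.89 and -0.42 in these lines.

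Genes most like Trib1 over the 12 group means included the syndecan gene Sdc4 (r = 0.97), the docking protein gene Dok1 (0.95), Ehbp1l1 (0.90) and Paics (0.89). Sdc4 group means ran from 87.4 to 230 TPM. None of these 4 is in the gene lists above.

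Trib2 was a low transcript, and its main contrast was between lines. WT libraries held 0.246, 0.266 and 0.242 TPM untreated, 0.506, 0.590 and 0.246 TPM with DMSO, 0.568, 0.453 and 0.360 TPM when starved, and 0.384, 0.477 and 0.285 TPM with thapsigargin. GCN2-deletion libraries held 2.10, 1.83 and 2.60 TPM untreated, 2.03, 2.94 and 2.38 TPM with DMSO, 1.31, 1.15 and 1.32 TPM when starved, and 2.59, 1.89 and 1.30 TPM with thapsigargin. Every GCN2-deletion library lay above every library of the other lines. PERK-deletion libraries held 0.758, 0.727 and 0.529 TPM untreated, 0.443, 0.564 and 0.488 TPM with DMSO, 0.700, 0.342 and 0.939 TPM when starved, and 0.871, 0.706 and 0.775 TPM with thapsigargin.

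In mean TPM, the GCN2-deletion line exceeded WT 8.65-fold untreated, 5.48-fold with DMSO, 2.73-fold when starved and 5.04-fold with thapsigargin. Untreated, means were 2.18 ± 0.389 and 0.252 ± 0.0127 TPM (SD, n = 3), and the log2 difference was 1.34 (SE 0.142, adjusted p = 6.66e-09). Trib2 could hardly fail to differ here, since the filter admitted it through this line. With every library of both lines under 1 TPM, the PERK-deletion line was above WT by 0.41 untreated (SE 0.142, adjusted p = 0.0164). That call was lost without replicate 1 (adjusted p = 0.0575) or replicate 2 (0.0508) of the untreated PERK-deletion cells, and with DMSO-treated cells the difference was 0.06 (0.768).

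Starvation lowered Trib2 in the GCN2-deletion line, from 2.18 ± 0.389 to 1.26 ± 0.0983 TPM (SD, n = 3), without overlap. The log2 change was -0.49 (SE 0.142, adjusted p = 0.0127). The call was lost without replicate 2 of the starved cells (adjusted p = 0.0531) or replicate 3 of the untreated cells (0.0728) of that line, and at a pseudocount of 0.1 (0.0625).

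Trib2 was under 1 TPM in every WT library, so log2(TPM + 1) left it little room to fall there. Its starvation response in the GCN2-deletion line was below that of WT by -0.71 (SE 0.201, adjusted p = 0.0255). This call was lost without either of those 2 libraries (adjusted p = 0.0642 and 0.0766), without replicate 1 of starved WT cells (0.0712), or against DMSO (0.0601). Starvation gave 0.22 in WT (95% interval -0.07 to 0.51, adjusted p = 0.280) and -0.02 in the PERK-deletion line (adjusted p = 0.973).

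Thapsigargin was not shown to change Trib2 in any line. The log2 changes were -0.06 in WT (95% interval -0.35 to 0.23, adjusted p = 0.830), -0.25 in the GCN2-deletion line (-0.54 to 0.04, adjusted p = 0.174) and 0.25 in the PERK-deletion line (-0.04 to 0.54, adjusted p = 0.441). In the GCN2-deletion line the change passed without replicate 1 of the thapsigargin cells (-0.41, adjusted p = 0.0325) and after rescaling of the libraries (-0.34, adjusted p = 0.0483). The PERK-deletion and GCN2-deletion responses differed by 0.50 (adjusted p = 0.0707). This passed without that library (0.66, adjusted p = 0.0164) and after rescaling (0.60, adjusted p = 0.0250). It also passed without replicate 1 of the DMSO-treated GCN2-deletion cells (0.59, adjusted p = 0.0395), the library with 2.81% microRNA TPM.

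In the order of means Trib2 spanned 9.74-fold, from DMSO-treated GCN2-deletion cells to untreated WT cells. The 4 GCN2-deletion groups came first, the 4 PERK-deletion groups next and the 4 WT groups last, and 9 of the 11 neighbouring pairs overlapped. The genes most like it over the 12 group means were Hddc3 (r = 0.97), Tnfrsf11a (0.96), Dkk3 (0.96), Svep1 (0.95) and Pdgfrl (0.95), among 10343 genes compared. Trib2 reached 1 TPM in the GCN2-deletion line alone, so the contrast of that line with the others dominates these coefficients. Trib2 is known as a target of WNT signalling in some cells. Of 11 WNT and TCF target genes listed, 5 were expressed highly enough to be tested. Starvation raised 3 of these 5 in WT, 5 in the GCN2-deletion line and 3 in PERK-deletion cells, where 29.8%, 23.8% and 12% of all genes were called in either direction. Their medians were 0.33, 0.59 and 0.27, beside -0.05, 0.00 and -0.02 over all genes. Trib2 itself changed by -0.49 with starvation in the GCN2-deletion line. With thapsigargin 0, 1 and 0 of the 5 rose and 3, 1 and 2 fell, where 26.2%, 36.6% and 5.24% of all genes were called. Medians were then -0.26, 0.14 and -0.30, beside -0.04, 0.08 and -0.04. In untreated cells 1 was higher and 2 lower than WT in each deletion line, where 44.4% and 49.6% of all genes were called. So few as 5 genes are little to read a count from.

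Since TPM is corrected for length, the 3 levels can be set side by side. Summed over the family, TPM ran from 22.3 ± 0.668 in untreated GCN2-deletion cells to 313 ± 17.7 in WT cells given thapsigargin (SD, n = 3). Trib3 was the highest member in 9 of the 12 groups and Trib1 in 3. Those 3 were the untreated, DMSO and starved groups of the GCN2-deletion line, where Trib1 made up 63.4%, 65.9% and 90.1% of the sum. With thapsigargin Trib3 made up 95.6% of the sum in that line, 96.8% in WT and 89.9% in the PERK-deletion line. Starvation thus left the family sum at 24.3 ± 1.18 TPM in the GCN2-deletion line and at 221 ± 16.4 TPM in WT. Trib2 made up at most 10.5% of the sum, in DMSO-treated GCN2-deletion cells.

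**Figure D4:**
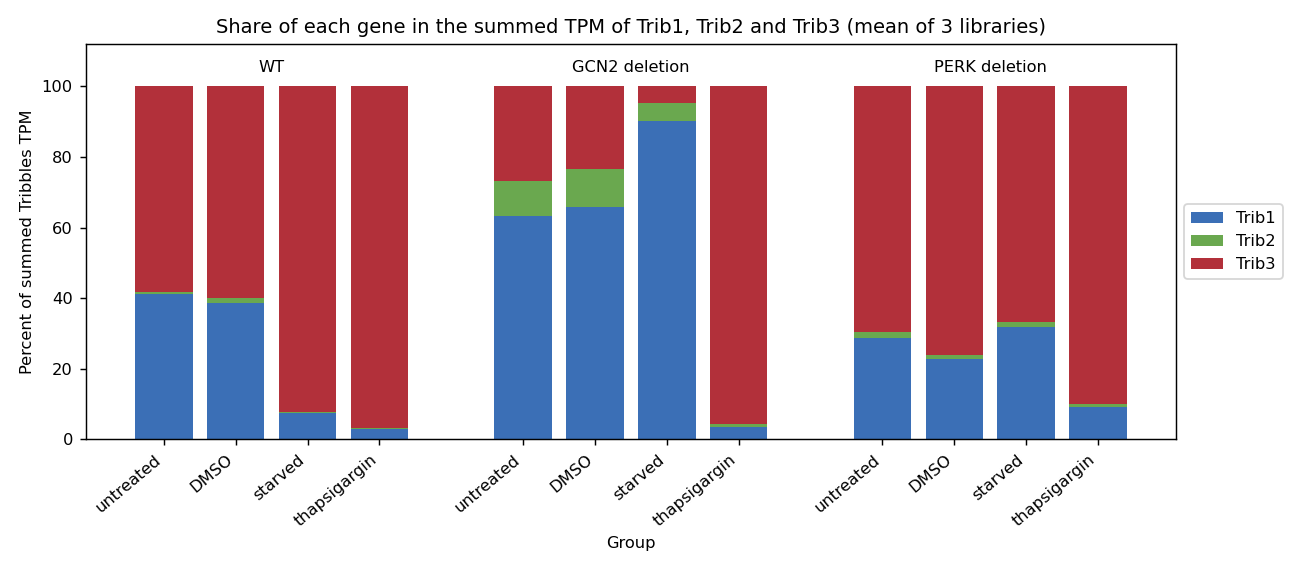
Percent of the summed TPM of Trib1, Trib2 and Trib3 that each gene makes up in each group (stacked bars from 0, means of 3 libraries). Trib1 takes 63.4% to 90.1% in the GCN2-deletion groups without thapsigargin, and Trib3 takes 89.9% to 96.8% in the 3 thapsigargin groups.

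Trib1 and Trib2 are known to act on their substrates through the COP1 ligase. Of 8 genes listed for it, 3 rose and 2 fell with starvation in WT, 1 rose and 1 fell in the GCN2-deletion line, and none passed by limma in the PERK-deletion line, where 2 had an unadjusted p under 0.05. With thapsigargin 2 rose and 2 fell in WT, 2 rose and 1 fell in the GCN2-deletion line, and none passed in the PERK-deletion line, where 0 had an unadjusted p under 0.05. With starvation 29.8%, 23.8% and 12% of all genes were called in the order WT, GCN2 deletion and PERK deletion, and with thapsigargin 26.2%, 36.6% and 5.24%. Its median log2 changes were 0.13, 0.04 and -0.09 with starvation and -0.04, 0.13 and -0.02 with thapsigargin. Cop1 itself, the ligase subunit that Tribbles proteins bind, rose with starvation in WT (log2 change 0.30) and passed in no other of these 6 comparisons.

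The 2 members of that list that rose most were Stk40 and Det1, while those that fell are counted above. Stk40, a Tribbles-like pseudokinase that also binds COP1, rose with starvation in WT (0.93) and in the GCN2-deletion line (0.38), and with thapsigargin in both (0.93 and 0.86). Its values of -0.28 and -0.05 in the PERK-deletion line did not pass. In WT its mean went from 14.6 to 28.8 TPM with starvation and from 11.7 to 23.2 TPM with thapsigargin. Det1, a partner of COP1 in the ligase, rose with starvation in WT (0.47) and with thapsigargin in WT (0.58) and the GCN2-deletion line (0.99).

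**Figure D5:**
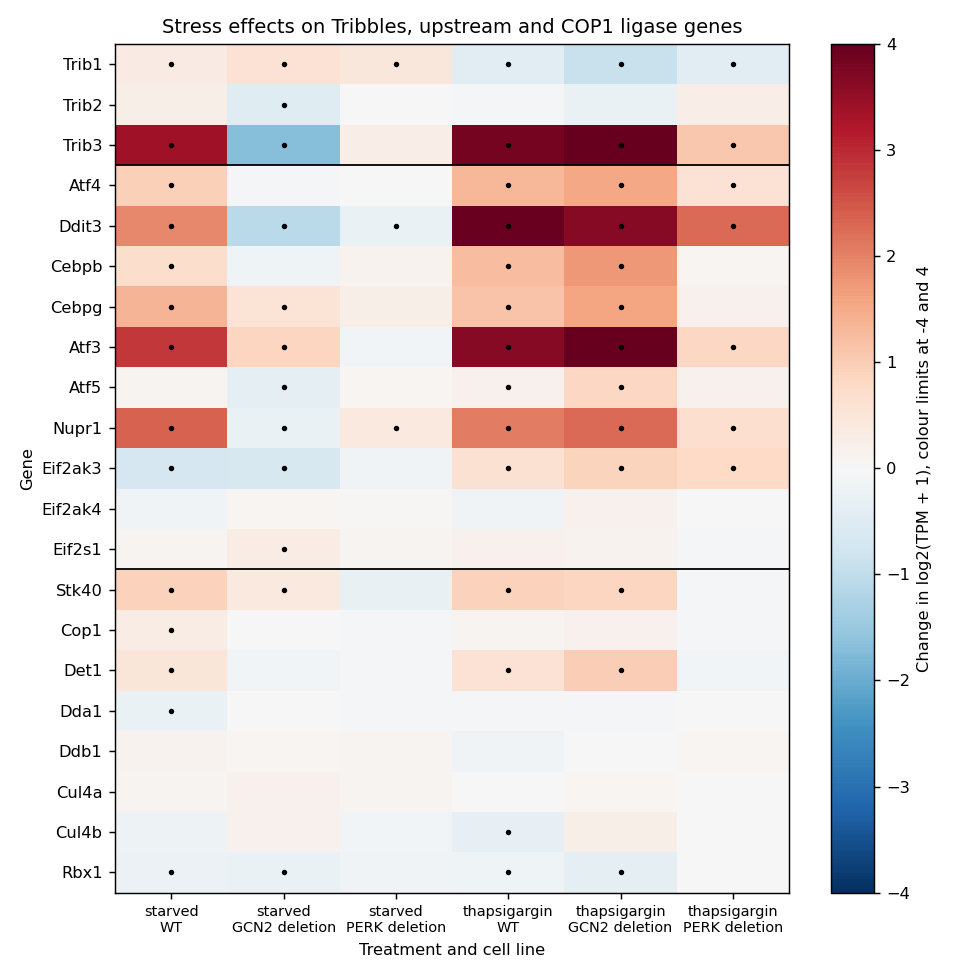
Change in log2(TPM + 1) (colour) of the 3 Tribbles genes, the 10 genes listed upstream of Trib3 and the 8 genes of the COP1 list, in the 6 stress comparisons; dots mark adjusted p under 0.05 and colours saturate at -4 and 4. In the column for starved PERK-deletion cells Trib1 (0.45) passes, Trib3 (0.27) does not, and none of the COP1 genes does.

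Among 18 known binding partners and substrates of Tribbles proteins, starvation raised 6 in WT, 5 in the GCN2-deletion line and 4 in PERK-deletion cells, with 0 falling, where 29.8%, 23.8% and 12% of all genes were called in either direction. The autophagy receptor gene Sqstm1, whose protein Trib3 is known to bind, rose in all 3 lines (1.30, 0.28 and 0.40). DMSO alone raised Sqstm1 in WT (0.38) and the PERK-deletion line (0.32), with 0.22 in the GCN2-deletion line, which did not pass. Starved deletion lines held 227 and 356 TPM of Sqstm1, beside 219 and 335 TPM with DMSO, so its rise in those lines rests on untreated cells as the control. With thapsigargin 5 rose and 3 fell in WT, 9 rose and 1 fell in the GCN2-deletion line, and 1 rose and 1 fell in the PERK-deletion line, where 26.2%, 36.6% and 5.24% of all genes were called. The largest rise there was Cebpb in the first 2 lines (1.25 and 1.75), a relative of the C/EBP-alpha gene that the upstream list also holds, while Akt1, whose product Trib3 is known to bind, fell in these lines (-0.42 and -0.38). Under thapsigargin in the PERK-deletion line Sqstm1 rose (0.40) and Foxo1 fell (-0.40). Median log2 changes of the list were 0.11, 0.11 and 0.10 with starvation and -0.05, 0.31 and -0.04 with thapsigargin, beside -0.05, 0.00 and -0.02 and then -0.04, 0.08 and -0.04 over all genes.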

How the data were processed

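RNA was sequenced from 36 libraries of MEFs, 3 in each of 12 groups of genotype and treatment, from stranded libraries per the labels' protocols. The submitters' processing notes name FastQC, kallisto and mm10, with no versions; strand settings are not given in the sources used here. The authors deposited TPM per gene symbol, with column totals of 999999.83 to 1000000.09, and 0 per-sample columns were left unused. No 2 libraries held identical values.

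TPM was taken as deposited, as log2(TPM + 1), for the 16083 genes that 3 or more libraries held at 1 TPM or above. One linear model of all 12 groups was made in limma 3.58.1 (R 4.3.3), with trended, robust variances (24 residual and, in the median, 2.80 prior degrees of freedom), and checked on simulated data. Adjusted p-values are Benjamini-Hochberg over all genes tested in each of 18 comparisons. A fold is a ratio of mean TPM. Figures used matplotlib 3.10.9 in Python 3.11.15.

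The members and gene lists were chosen with earlier results of these data known. Beside the members, the text names the 5 genes with the highest correlation to each over the 12 group means, among genes with a group mean of at least 5 TPM and a conventional symbol, the upstream and COP1 lists, and at most 2 rises and 2 falls from each other list; 1 gene under this rule is not reported here. Dusp6, Slc7a11 and Slc6a9 follow that rule within 1 comparison; list members named for a second comparison, Atf4 and Ddit3 levels, and Akt1 were set out after their values were seen. Alternatives were the other control group, rescaling by median of ratios, variances without trend, no filter or one at 5 TPM, the compared groups alone, a pseudocount of 0.1, a replicate block and leaving out each library. The labels give replicate numbers, but same-numbered libraries did not deviate together.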

Additional observations from a re-analysis of the deposited data

Results flagged for a closer look

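Some responses to the same stress differed between 2 lines by a direct test of the difference (limma, adjusted p under 0.05). With starvation, the Trib3 response differed from WT by -5.11 in the GCN2-deletion line and by -3.12 in the PERK-deletion line, and the PERK-deletion line differed from the GCN2-deletion line by 1.99, all on the log2 scale. The Trib2 starvation response differed from WT by -0.71 in the GCN2-deletion line, a call that 3 single libraries can end. Trib2 entered the test only through that line and was near the floor in WT.

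With thapsigargin, the Trib3 response differed from WT by 1.20 in the GCN2-deletion line and by -2.76 in the PERK-deletion line, and between the deletion lines (PERK minus GCN2) by -3.96. The Trib1 thapsigargin response differed from WT by -0.46 in the GCN2-deletion line, and between the deletion lines (PERK minus GCN2) by 0.47. The call between the deletion lines was lost with untreated cells as the control (0.21, limma, adjusted p = 0.107).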

How the results depend on the processing

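Of 845 recomputed values of the 3 genes, 799 kept their direction and their side of the threshold. The cause of the others was not tested. The alternatives of filter, variance trend, compared groups alone and replicate block leave each log2 change as it is. Only a call could change there, so those values say nothing on direction. With the other control (DMSO for starvation and for lines, untreated for thapsigargin), Trib2 gave 0.13 for starvation in the PERK-deletion line, 0.14 for thapsigargin in WT, -0.62 for the starvation response of GCN2 deletion minus WT, 0.11 for PERK deletion minus WT and 0.74 for PERK minus GCN2 deletion, -0.045 for the thapsigargin response of PERK deletion minus WT, -0.12 for starvation minus thapsigargin response in WT and 0.057 for PERK deletion minus WT. Trib1 gave 0.11 for the starvation response of PERK minus GCN2 deletion, -0.15 and 0.21 for the thapsigargin response of PERK deletion minus WT and minus GCN2 deletion, and 0.21 for GCN2 deletion minus WT. Trib3 gave -0.018 for starvation in PERK-deletion cells and -0.71 for starvation minus thapsigargin response in WT. Rescaling gave -0.34 and 0.60 for Trib2 (thapsigargin in the GCN2-deletion line, and its response in PERK minus GCN2 deletion) and 0.15 for Trib1 (untreated GCN2 deletion minus WT). It moved the median of all genes by over 0.1 in 2 comparisons only, the thapsigargin responses of GCN2 deletion minus WT (0.13 to 0.00) and PERK minus GCN2 deletion (-0.13 to 0.00). The compared groups alone gave 0.45 for Trib1 with starvation in PERK-deletion cells and -0.21 for it untreated, PERK deletion minus WT. A pseudocount of 0.1 gave -0.73 for Trib2 with starvation in the GCN2-deletion line and -0.0028 for the Trib1 thapsigargin response of PERK deletion minus WT. The filter at 5 TPM left no value for Trib2. No filter and variances without trend changed no call of the 3 genes, and by design they could not change a direction.

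Leaving out single libraries gave for Trib2 -0.56 to -0.39 (starvation, GCN2 deletion), -0.14 to 0.12 (starvation, PERK deletion), -0.78 to -0.61 (starvation response, GCN2 deletion minus WT), -0.41 to -0.092 (thapsigargin, GCN2 deletion), -0.17 to 0.010 (thapsigargin, WT), 0.34 to 0.66 (thapsigargin response, PERK minus GCN2 deletion) and 0.38 to 0.48 (untreated, PERK deletion minus WT). For Trib1 it gave -0.020 to 0.046 (DMSO, WT), -0.032 to 0.077 (thapsigargin response, PERK deletion minus WT) and -0.25 to -0.15 (untreated, PERK deletion minus WT), and for Trib3 0.15 to 0.48 (starvation, PERK deletion). A list count was also recomputed after the data were seen: without replicate 1 of the starved PERK-deletion cells, 12 in place of 7 of the ATF4 and CHOP targets rose and 0 in place of 1 fell.

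Every group holds each replicate number, so a replicate block could not alter a log2 change, only its error. The block changed no call of the 3 genes. Same-numbered libraries shared only a number: 12 of 36 correlated best with their own number.

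Counts of all genes called moved by over 1.5 times in 25 of 141 counts recomputed with all libraries kept, and in 23 of 150 recomputed without 1 library. With the other control, thapsigargin in the PERK-deletion line went from 843 to 1514, its response there minus WT from 2070 to 3205, that of GCN2 deletion minus WT from 2276 to 5709, the starvation response of PERK minus GCN2 deletion from 676 to 355, and starvation minus thapsigargin response in WT from 1903 to 3440. In the compared groups alone, starvation went from 4799 to 2381 in WT and from 1929 to 459 in the PERK-deletion line, thapsigargin in the PERK-deletion line to 1316, the starvation responses from 1240 to 780, from 1739 to 691 and from 676 to 219, starvation minus thapsigargin response to 1266, and the untreated line differences from 7140 to 4264 and from 7981 to 4672. Rescaling took the starvation response of PERK minus GCN2 deletion to 1121. DMSO counts, 13, 22 and 38, became 47, 91 and 82 with rescaling and 2, 3 and 18 alone; WT gave 20 without trend and 27 without filter, and the PERK-deletion line 79 without filter and 23 at a pseudocount of 0.1. Without 1 library, such moves fell in 6 comparisons, such as DMSO in WT (2 to 1464, the latter without untreated replicate 3).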
